A study of Mus musculus with 463 samples.

Results

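The 8 genes Hnf4a, Hhex, Prox1, Onecut1, Onecut2, Cebpa, Tbx3 and Nr1h4 encode nuclear factors known from the developing liver and foregut, and their transcript levels were followed across sorted mouse embryonic pancreas, ventral foregut and liver bud cells. They were chosen by name from the 40824 genes counted in each of 2 read count tables, one of 16 bulk libraries and one of 447 single cells, and all 8 passed the filter on low counts in both. These genes and the gene lists used below were chosen with earlier results of these data known. Their shares and medians beside those of all genes are therefore a description and no independent test. Bulk RNA came from pooled sorted cells of ventral and dorsal pancreas, with 2 libraries per group: Pdx1-GFP+ cells at E10.5 (E, embryonic day), Ngn3-GFP-high and Ngn3-GFP-low cells at E14.5, and Ins1-RFP+ cells at E17.5. Single cells were sequenced with Smart-seq2, which amplifies full-length cDNA cell by cell. They were ventral or dorsal Pdx1-GFP+ cells at E9.5 and E10.5, ventral or dorsal Pdx1-GFP-high and Pdx1-GFP-low cells at E10.5, Liv2+ liver bud cells at E10.5, and ventral Pdx1-GFP-low cells at E10.5 split into Liv2+ and Liv2- fractions. Liv2 is a surface antigen of fetal hepatoblasts, the bipotent precursors of hepatocytes and bile duct cells. A further 4 single cells came from E15.5 liver and carried Pdx1-Cre and the ROSA26-tdTomato reporter, which marks cells that have expressed the recombinase and their descendants. GFP driven by Pdx1 or Ngn3 and RFP driven by the insulin gene are transgenic reporters, so a gate reports the fluorescence of a cell, which can outlast or lag its mRNA. The labels mark culture time and treatment as not applicable, except for 25 ventral E9.5 cells, which have no such entry and carry a growth protocol for human cells. The study set ventral against dorsal pancreatic progenitors.

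The liver and the ventral pancreas arise side by side from ventral foregut endoderm, whereas the dorsal pancreas buds from the opposite wall of the gut tube. HHEX and PROX1 are homeodomain proteins needed in the mouse for the liver bud to grow out, and HHEX is also needed for the ventral pancreas to form. TBX3 is a T-box repressor of the early liver bud, and ONECUT1 and ONECUT2 are cut-homeodomain activators used in liver, bile duct and pancreas. HNF4A is a nuclear receptor that drives hepatocyte and islet genes, CEBPA is a bZIP activator of hepatocyte metabolism, and NR1H4 (FXR) is the bile acid receptor.

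The promoters of 4 of the factors are shown as examples: Hhex and Onecut1, whose transcripts differ by side and gate in the results that follow, and Hnf4a and Nr1h4, which held a motif match. Prox1 and Cebpa also differ there, held no match and are not shown. The RefSeq promoter table (GRCm38.p6) held 8 promoters for 6 of the 8 genes and none for Onecut2 and Tbx3. Each sequence runs 5′ to 3′ and gives the 250 bases before the RefSeq start. A set of 5 short words was searched on both strands over 300 bases (250 before and 50 after the start), and capitals mark a match.
Hhex, chr19:37434591-37434840, plus strand: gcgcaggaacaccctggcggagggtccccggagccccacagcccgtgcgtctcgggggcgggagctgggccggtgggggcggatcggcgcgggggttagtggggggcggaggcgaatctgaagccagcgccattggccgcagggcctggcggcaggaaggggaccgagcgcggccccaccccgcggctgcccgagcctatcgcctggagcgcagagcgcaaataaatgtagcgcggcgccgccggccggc
Onecut1, chr9:74861671-74861920, plus strand: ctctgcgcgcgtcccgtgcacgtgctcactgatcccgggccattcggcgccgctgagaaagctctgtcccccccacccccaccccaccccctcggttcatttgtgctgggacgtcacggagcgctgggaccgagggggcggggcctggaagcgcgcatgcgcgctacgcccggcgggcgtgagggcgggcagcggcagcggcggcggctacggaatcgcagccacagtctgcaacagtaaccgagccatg
Hnf4a, chr2:163506607-163506856, plus strand: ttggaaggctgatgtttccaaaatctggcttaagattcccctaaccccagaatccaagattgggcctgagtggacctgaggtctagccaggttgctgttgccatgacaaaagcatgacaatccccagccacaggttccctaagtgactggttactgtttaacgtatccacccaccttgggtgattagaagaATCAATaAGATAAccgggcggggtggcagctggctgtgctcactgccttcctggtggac
Nr1h4, chr10:89506659-89506908, minus strand: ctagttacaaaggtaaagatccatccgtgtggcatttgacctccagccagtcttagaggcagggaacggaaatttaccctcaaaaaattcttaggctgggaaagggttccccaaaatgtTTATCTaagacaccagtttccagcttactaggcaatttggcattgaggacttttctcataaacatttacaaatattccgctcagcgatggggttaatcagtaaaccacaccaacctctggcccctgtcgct
The words were TGTTTAC (FOXA factors, in 3.65% of all 32851 RefSeq promoters of this length), AGATAA (factors of the GATA family, 11.2%), CAAAGTC (HNF4, 4.44%), ATCAAT (ONECUT factors, 7.54%) and TTGCGCAA (CEBP factors, 0.183%). Hnf4a held ATCAAT at position 192 and AGATAA at position 199, which do not overlap, and Nr1h4 held AGATAA on the other strand at position 120, where it reads TTATCT. None of these 5 words was found in the Hhex, Onecut1, Cebpa or Prox1 promoters, or in a second Hnf4a promoter at chr2:163546905-163547204. The Nr1h4 promoter shown lies within the annotated gene, whose 5′ end is at chr10:89533585. GC content was 75.7% in the Hhex, 73.0% in the Onecut1, 54.0% in this Hnf4a and 45.7% in the Nr1h4 promoter. A match is a description of letters and says nothing of binding.

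In GENCODE annotation of GRCm38, all 8 are protein-coding genes. Hnf4a (ENSMUSG00000017950) at chr2:163506808-163572910, Hhex (ENSMUSG00000024986) at chr19:37434810-37440731, Onecut1 (ENSMUSG00000043013) at chr9:74861921-74891781, Onecut2 (ENSMUSG00000045991) at chr18:64340020-64400987, Cebpa (ENSMUSG00000034957) at chr7:35119293-35121928 and Tbx3 (ENSMUSG00000018604) at chr5:119670669-119684724 lie on the plus strand. On the minus strand lie Prox1 (ENSMUSG00000010175) at chr1:190118035-190170714 and Nr1h4 (ENSMUSG00000047638) at chr10:89454234-89533585. Prox1os runs antisense over the 5′ end of Prox1 and Tbx3os1 over the start of Tbx3. The strand setting of the counting is not given in the sources used here, so reads from such an overlap cannot be told apart by strand. Prox1os had 8.93 and 10.47 CPM (read counts scaled to the same library total) in the ventral and 20.4 and 20.4 CPM in the dorsal E10.5 bulk libraries. Divided by transcript length in kilobases (RPKM), Prox1os stood at 10.8 and 12.6 RPKM in ventral and 24.6 and 24.6 RPKM in dorsal libraries, beside Prox1 at 27.9 and 32.2 RPKM in ventral and 59.6 and 65.6 RPKM in dorsal ones. Both were lower in the ventral libraries, and the part of Prox1os reads in the Prox1 results was not tested. Tbx3os1 had 2.05 to 2.91 CPM in the ventral and 0 to 0.429 CPM in the dorsal E10.5 bulk libraries.

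Reads on genes numbered 8779418 to 24551520 in a bulk library and 1064163 in the median cell. Cells were summed per numbered set, the smallest unit that the titles name above the cell, and 37 sets of at least 3 cells in 11 groups were tested. The labels do not say what a set is, nor whether 2 bulk libraries came from separate litters, so p-values measure the spread between these samples, which may be technical. With 2 samples per group, groups can lie apart by chance. Where groups are said below not to overlap, the share of all genes that did so was not counted. Defining markers bore out the liver bud label: Afp, the fetal liver secretory protein, reached 25343 and 35471 CPM there, and Pdx1, the pancreatic homeobox gene, 0 and 0.156 CPM. The 6 dorsal Pdx1-low sets held Gcg, the glucagon gene of alpha cells, at 22816 to 50290 CPM, against at most 99.3 CPM in the ventral sets, and in dorsal Pdx1+ sets at E10.5 it was 6316, 7.07 and 38661 CPM. In E10.5 bulk libraries, 5 cardiac muscle markers summed to 1160 to 1990 CPM in ventral and 5.62 to 23.9 CPM in dorsal cells. There 5 mesenchyme markers summed to 411 to 705 and 29.3 to 38.3 CPM, and 6 hepatoblast markers to 4120 to 4520 and 1390 to 1550 CPM. Of those lists, 5 of 5 cardiac, 5 of 5 mesenchyme and 5 of 6 hepatoblast markers were higher in ventral cells. In contrast, 5 of 5 alpha cell markers (16.5 to 52.8 against 2850 to 2880 CPM) and 6 of 6 pancreatic progenitor markers (361 to 380 against 864 to 869 CPM) were lower. In bulk RNA, fewer cells of a type and less RNA per cell cannot be told apart, and the part these other cells have in the results on Pdx1+ cells was not tested.

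At E10.5, 4 of the 8 factors were higher in ventral than in dorsal Pdx1+ bulk cells and 1 was lower, by the quasi-likelihood F test of edgeR, with p-values adjusted over 17690 genes (Benjamini-Hochberg) at 0.05. The same test called 24.7% of all genes. Hhex had 135.1 and 135.5 CPM in the ventral libraries and 19.1 and 16.97 CPM in the dorsal ones. The ventral libraries stood far above both dorsal ones (log2 fold change 2.91, SE 0.19, adjusted p = 9.13e-08). Tbx3 had 39.8 and 44.6 CPM in ventral and 5.47 and 2.01 CPM in dorsal cells (log2 fold change 3.51, SE 0.53, adjusted p = 0.000498), again with no overlap. Cebpa had 29.2 and 26.0 CPM in ventral and 16.3 and 15.1 CPM in dorsal cells (log2 fold change 0.82, SE 0.20, adjusted p = 0.00648). Onecut1 had 77.0 and 107.5 CPM in ventral and 59.7 and 67.7 CPM in dorsal cells (log2 fold change 0.54, SE 0.16, adjusted p = 0.0199). Neither gene overlapped between the sides, but the 2 ventral Onecut1 values differed more from each other than the lower of them did from the higher dorsal value. Prox1 went the other way, with 220.4 and 255.0 CPM in ventral and 472.0 and 519.4 CPM in dorsal cells (log2 fold change -1.06, SE 0.13, adjusted p = 1.42e-05). So both homeodomain genes of the liver bud differed by side, in opposite directions.

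Hnf4a had 95.3 and 90.8 CPM in ventral and 89.4 and 91.7 CPM in dorsal cells at E10.5, and the sides overlapped (log2 fold change 0.04, SE 0.09, adjusted p = 0.831). Onecut2 had 153.0 and 211.9 CPM in ventral and 116.9 and 108.7 CPM in dorsal cells, which did not overlap but gave an adjusted p of 0.521, and of 9.89e-08 when genes of low count were kept in the fit. Nr1h4 was at 1 read in ventral and 4 reads in dorsal libraries. The median log2 fold change was 0.62 over the 8 factors and -0.03 over all genes tested. Some calls rested on single libraries: that of Cebpa was lost without dorsal library 2 (adjusted p = 0.0737) or ventral library 1 (0.0513). That of Onecut1 was lost without dorsal library 1 (0.165), dorsal library 2 (0.0554) or ventral library 2 (0.291).

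**Figure D1:**
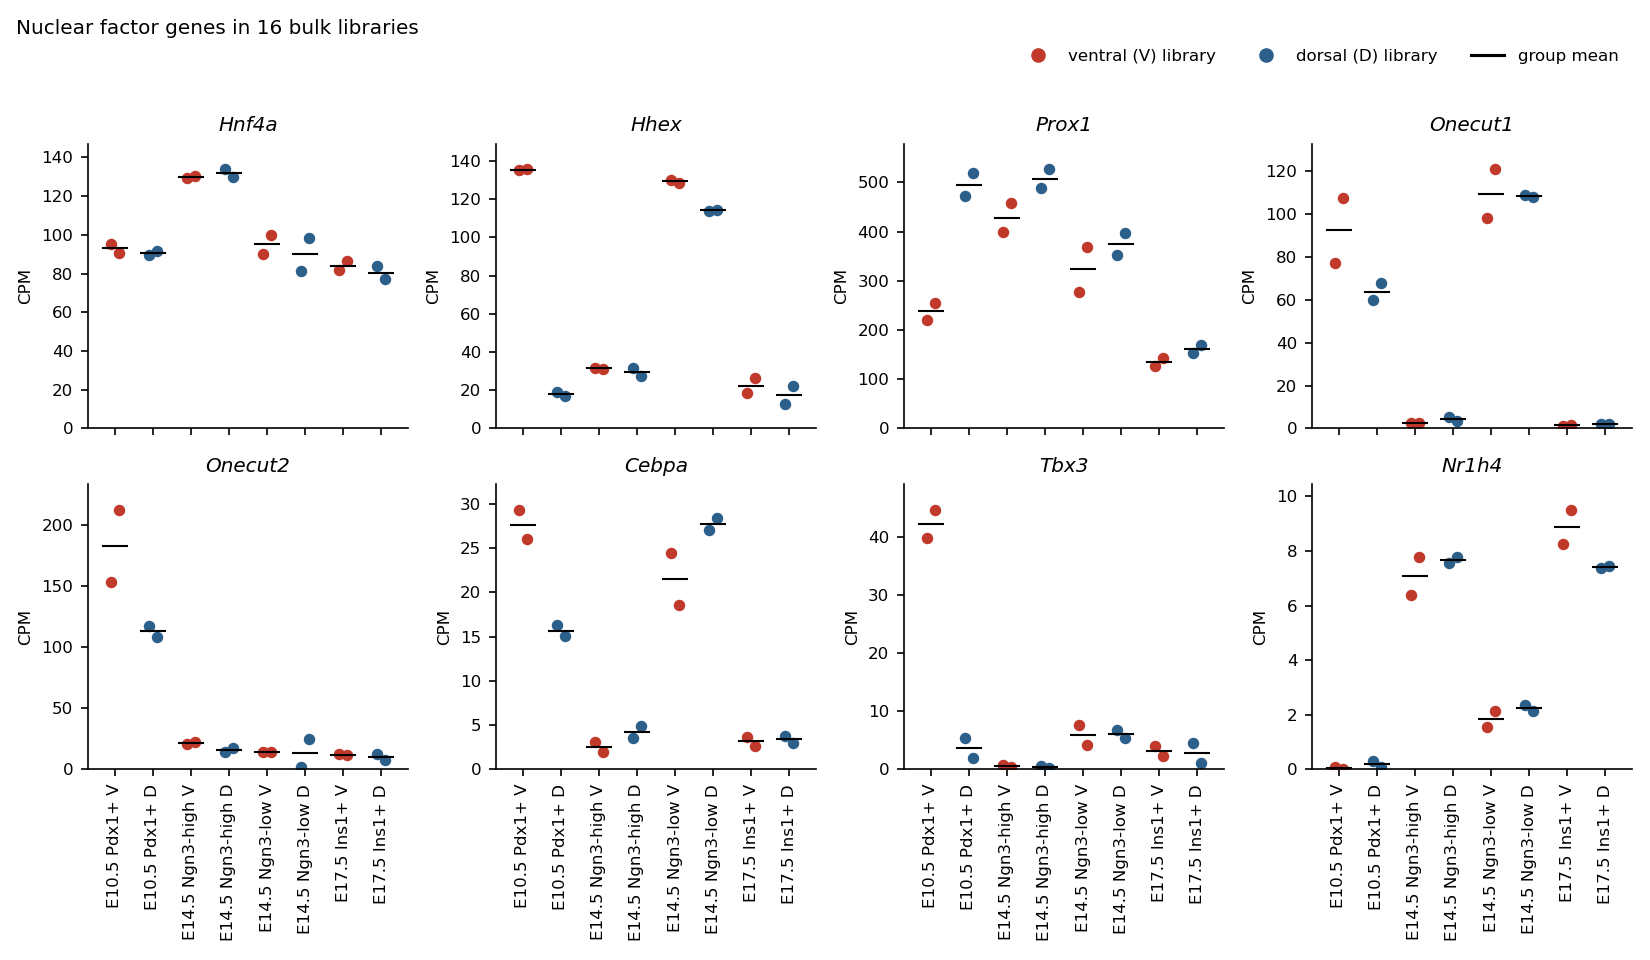
Scaled read counts (CPM) of the 8 factors in the 16 bulk libraries. Points are single libraries, ventral (red) left of dorsal (blue) at each stage and gate, and lines are means of the 2 libraries; Hhex and Tbx3 separate by side at E10.5, and Onecut1, Cebpa and Hhex are lower in Ngn3-high than in Ngn3-low cells.

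At E14.5 and E17.5 no factor passed the test between the sides. In ventral against dorsal Ngn3-high cells 0 of 8 factors were called, with 0.537% of all genes called, 2 factors at an unadjusted p under 0.05 and 0 by DESeq2. In Ngn3-low cells 0 of 8 were called (0.017% of genes; 0 unadjusted, 0 by DESeq2), and in Ins1+ cells 0 of 8 (0.0283% of genes; 0 unadjusted, 0 by DESeq2). Hhex had 129.9 and 128.6 CPM in ventral and 114.0 and 114.1 CPM in dorsal Ngn3-low cells, and 18.4 and 26.3 CPM in ventral and 12.9 and 22.3 CPM in dorsal Ins1+ cells. Dorsal Ngn3-low cells thus lay near the ventral level, where dorsal E10.5 cells had not. The 2 factors under an unadjusted 0.05 in Ngn3-high cells were Onecut1 (2.45 and 2.71 CPM ventral, 5.395 and 3.485 CPM dorsal, adjusted p = 0.315, or 0.00383 when genes of low count were kept) and Cebpa (3.05 and 1.93 CPM ventral, 3.596 and 4.86 CPM dorsal, adjusted p = 0.459). Onecut2 between the sides of Ngn3-low cells was called without dorsal library 2 (log2 fold change 3.05, adjusted p = 0.0023).

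The change of the side difference was tested as a difference of log2 fold changes in the same fit. From E10.5 to E14.5 Ngn3-low cells, 1 of 8 factors was called with a larger ventral over dorsal value and 3 with a smaller one, with 12.0% of all genes called in either direction. Hhex changed by -2.73 (SE 0.25, adjusted p = 7.54e-06), Tbx3 by -3.56 (SE 0.73, adjusted p = 0.00723), Cebpa by -1.19 (SE 0.28, adjusted p = 0.00884) and Prox1 by 0.85 (SE 0.18, adjusted p = 0.00499) on the log2 scale. For all 4 the E14.5 sides lay closer together than the E10.5 sides. From E10.5 to E17.5 Ins1+ cells 1 factor was called higher and 2 lower, with 12.7% of genes called: Hhex by -2.55 (adjusted p = 2.67e-05), Tbx3 by -3.37 (adjusted p = 0.0167) and Prox1 by 0.80 (adjusted p = 0.00817). Between the Ngn3-high and Ngn3-low side differences 0 of 8 were called (0.0283% of genes; 1 unadjusted, 0 by DESeq2). The changes to E14.5 Ngn3-low and to E17.5 cells share the E10.5 libraries. The Cebpa change was lost without E10.5 dorsal library 2 (adjusted p = 0.0532), and the Tbx3 change to E17.5 without that library (0.0528), E17.5 dorsal library 1 (0.263) or E17.5 ventral library 2 (0.0614).

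**Figure D2:**
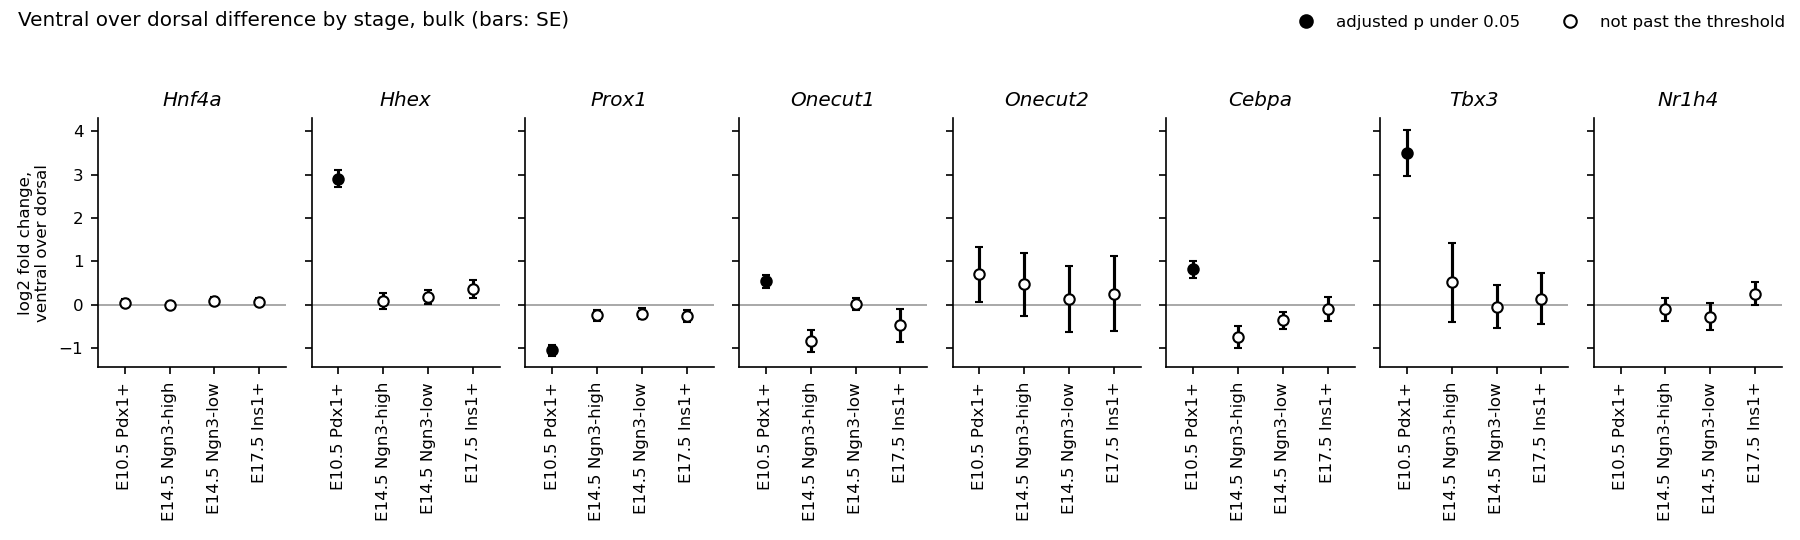
Ventral over dorsal log2 fold change of each factor in the 4 bulk comparisons, with bars of 1 SE from edgeR and filled points where the adjusted p was under 0.05. Only E10.5 has filled points, with Hhex at 2.91, Tbx3 at 3.51 and Prox1 at -1.06; Nr1h4 is left out at E10.5, where it had 1 and 4 reads.

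NEUROG3 (the Ngn3 of the reporter) starts the endocrine program, so the Ngn3 gate at E14.5 sets cells with much of that reporter against cells with little. The gate and stage comparisons use the same E14.5 libraries. Here 3 factors were higher in Ngn3-high than in Ngn3-low cells and 4 lower on both sides; the tests called 61.8% of all genes in ventral and 61.3% in dorsal cells, so most genes differed by this gate. Onecut1 had the largest difference of the 8: 2.45 and 2.71 CPM in ventral Ngn3-high and 98.0 and 120.6 CPM in ventral Ngn3-low cells (log2 fold change -5.39, SE 0.21, adjusted p = 6.5e-12). It had 5.395 and 3.485 CPM in dorsal Ngn3-high against 109 and 108 CPM in dorsal Ngn3-low cells (-4.53, SE 0.19, adjusted p = 1.79e-11). Cebpa had 3.05 and 1.93 CPM in ventral Ngn3-high and 24.4 and 18.6 CPM in ventral Ngn3-low cells (log2 fold change -3.13, adjusted p = 5.94e-09), and 3.596 and 4.86 against 27.1 and 28.4 CPM in dorsal cells (-2.75, adjusted p = 1.31e-08). Both genes were thus at a few CPM in Ngn3-high cells of either side, and Ngn3-low cells held at least 18.6 CPM of either.

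Hhex had 31.7 and 31.3 CPM in ventral Ngn3-high against 129.9 and 128.6 CPM in ventral Ngn3-low cells (log2 fold change -2.04, adjusted p = 2.39e-07), and 31.4 and 27.5 against 114.0 and 114.1 CPM in dorsal cells (-1.94, adjusted p = 3.98e-07). Tbx3 was lower too, at 0.818 and 0.482 CPM in ventral Ngn3-high and 7.58 and 4.21 CPM in ventral Ngn3-low cells (adjusted p = 0.00126), with a similar pair of values in dorsal cells (0.531 and 0.275 against 6.81 and 5.39 CPM, adjusted p = 0.000503). Both nuclear receptors were higher in Ngn3-high cells. Hnf4a had 129.4 and 130.3 CPM in ventral Ngn3-high and 90.2 and 99.99 CPM in ventral Ngn3-low cells (log2 fold change 0.45, adjusted p = 0.000414), and 133.8 and 129.7 against 81.4 and 98.3 CPM in dorsal cells (0.55, adjusted p = 5.98e-05). Nr1h4 had 6.396 and 7.77 CPM in ventral Ngn3-high and 1.55 and 2.13 CPM in ventral Ngn3-low cells (log2 fold change 1.93, adjusted p = 1.99e-05), and 7.56 and 7.80 against 2.35 and 2.13 CPM in dorsal cells (1.77, adjusted p = 4.02e-05). No Ngn3-high library overlapped a Ngn3-low one for either receptor.

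Prox1 had 399.0 and 458.1 CPM in ventral Ngn3-high and 277.6 and 369.6 CPM in ventral Ngn3-low cells, and 487.8 and 526.2 against 353.4 and 396.3 CPM in dorsal cells. These differences were called (log2 fold change 0.41, adjusted p = 0.0115 ventral; 0.44, adjusted p = 0.00745 dorsal) but were lost without ventral Ngn3-low library 1 (0.182), ventral Ngn3-high library 2 (0.117), dorsal Ngn3-low library 1 (0.0753) or dorsal Ngn3-high library 2 (0.0599). Onecut2 was not called on either side (20.8 and 22.6 against 14.4 and 14.4 CPM ventral, adjusted p = 0.521, or 7.43e-05 when genes of low count were kept; 14.3 and 17.7 against 1.73 and 24.6 CPM dorsal, adjusted p = 0.798). Its 2 dorsal Ngn3-low libraries lay far apart: without library 1 the log2 fold change was -0.64 (adjusted p = 0.026) and without library 2 it was 3.18 (adjusted p = 2.42e-06). The same library 1 was also the lower for Gcg (27.8 against 137.8 CPM in library 2) and Afp (46.3 against 124.3 CPM), genes chosen after their values were seen, and their part in the Onecut2 result was not tested. All 5 endothelial markers were lower in Ngn3-high cells on both sides (summed 5.12 to 9.07 against 193 to 634 CPM ventral, 5.69 to 9.64 against 289 to 574 CPM dorsal). Summed immune markers were lower too (7.77 to 10.6 against 83.9 to 109 CPM ventral, 10.8 to 11.0 against 104 to 107 CPM dorsal), and the part of either list in the gate results was not tested.

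Stage was compared in bulk between E14.5 Ngn3-low and E10.5 Pdx1+ cells and between E17.5 Ins1+ and E14.5 Ngn3-high cells, so stage and gate change together. In Ngn3-low over E10.5 cells, 2 factors were called higher and 2 lower in ventral cells (55.2% of all genes called), and 4 higher and 2 lower in dorsal cells (59.8%). Hhex differed by side in this comparison. Ventral Ngn3-low cells, at 129.9 and 128.6 CPM, were close to the ventral E10.5 cells at 135.1 and 135.5 CPM (log2 fold change -0.07, adjusted p = 0.764). Dorsal Ngn3-low cells, at 114.0 and 114.1 CPM, were above dorsal E10.5 cells at 19.1 and 16.97 CPM (log2 fold change 2.66, SE 0.19, adjusted p = 5.6e-08). Cebpa did likewise, with -0.36 (adjusted p = 0.125) in ventral and 0.82 (adjusted p = 0.00201) in dorsal cells. Tbx3 showed the other arrangement, with 7.58 and 4.21 CPM in ventral Ngn3-low and 39.8 and 44.6 CPM in ventral E10.5 cells (log2 fold change -2.84, SE 0.49, adjusted p = 0.000442). It had 6.81 and 5.39 CPM in dorsal Ngn3-low against 5.47 and 2.01 CPM in dorsal E10.5 cells (0.72, adjusted p = 0.281; 0.75 and 0.0186 when genes of low count were kept). Summed markers of other cells moved with these comparisons. Cardiac muscle markers were 1.17 to 1.30 CPM in ventral Ngn3-low and 1160 to 1990 CPM in ventral E10.5 libraries. Alpha cell markers were 34.5 to 145 CPM in dorsal Ngn3-low and 2850 to 2880 CPM in dorsal E10.5 libraries. Endothelial markers were 193 to 634 against 16.5 to 41.8 CPM in ventral and 289 to 574 against 4.42 to 9.00 CPM in dorsal cells, and the part of these lists in the stage results was not tested.

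Onecut1 was higher in dorsal Ngn3-low than in dorsal E10.5 cells (log2 fold change 0.77, adjusted p = 0.000591) and was not called in ventral cells (0.24, adjusted p = 0.19; 0.0162 without E10.5 ventral library 2). Onecut2 was lower in Ngn3-low cells on both sides, at 14.4 and 14.4 CPM against 153.0 and 211.9 CPM in ventral E10.5 cells (log2 fold change -3.66, SE 0.74, adjusted p = 0.00275). It had 1.73 and 24.6 CPM in dorsal Ngn3-low against 116.9 and 108.7 CPM in dorsal E10.5 cells (-3.10, SE 0.74, adjusted p = 0.00602, ranging over -6.01 to -2.20 with single libraries left out). Its relative Onecut1, by contrast, had 98.0 to 120.6 CPM in all 4 Ngn3-low libraries. Nr1h4 reached 60 reads in ventral Ngn3-low against 1 read in ventral E10.5 libraries, a ratio of 40.4 at equal depth (95% exact interval 6.99 to 1620, for counting error only), and 72 against 4 reads in dorsal libraries (log2 fold change 3.38, adjusted p = 2.14e-05). Prox1 was called higher in ventral (0.44, adjusted p = 0.00812) and lower in dorsal Ngn3-low cells (-0.40, adjusted p = 0.0128). Those Prox1 calls were lost without E10.5 ventral library 1 (0.0839), ventral Ngn3-low library 2 (0.159), E10.5 dorsal library 2 (0.103) or dorsal Ngn3-low library 1 (0.106).

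In E17.5 Ins1+ over E14.5 Ngn3-high cells, 1 factor was called higher and 3 lower in ventral cells (51.0% of all genes called), and 1 higher and 4 lower in dorsal cells (47.4%). Prox1 had 126.5 and 142.5 CPM in ventral Ins1+ and 399.0 and 458.1 CPM in ventral Ngn3-high cells (log2 fold change -1.67, SE 0.13, adjusted p = 4.49e-08). It had 152.5 and 170.3 CPM in dorsal Ins1+ against 487.8 and 526.2 CPM in dorsal Ngn3-high cells (-1.65, SE 0.13, adjusted p = 5.77e-08). Ins1+ cells thus held the lowest Prox1 levels of the 4 bulk stages and gates on both sides. Hnf4a had 81.8 and 86.3 CPM in ventral Ins1+ against 129.4 and 130.3 CPM in ventral Ngn3-high cells (log2 fold change -0.63, adjusted p = 3.23e-05), and 84.0 and 77.1 against 133.8 and 129.7 CPM in dorsal cells (-0.71, adjusted p = 1.09e-05). Over all 16 bulk libraries Hnf4a kept within 77.1 and 133.8 CPM, the narrowest relative range of the 8 factors. Hhex was lower in Ins1+ cells (-0.51, adjusted p = 0.0387 ventral; -0.78, adjusted p = 0.00527 dorsal). Tbx3 was higher at a low level (4.01 and 2.29 against 0.818 and 0.482 CPM ventral, adjusted p = 0.0183; 4.49 and 1.08 against 0.531 and 0.275 CPM dorsal, adjusted p = 0.0118). Onecut1 was lower in dorsal cells (-1.10, adjusted p = 0.00546) with -0.73 (adjusted p = 0.0887, or 0.0275 when genes of low count were kept) in ventral cells. Onecut2 was not called on either side in the main fit. With genes of low count kept it was called lower in ventral (-0.87, adjusted p = 1.62e-08) and dorsal cells (-0.66, adjusted p = 7.34e-05).

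Several of these calls also rested on single libraries. Those of Hhex were lost without ventral Ngn3-high library 1 (adjusted p = 0.104) or 2 (0.114), E17.5 ventral library 1 (0.286), dorsal Ngn3-high library 1 (0.0545) or E17.5 dorsal library 1 (0.0516), and the ventral one also under DESeq2's scaling of depth (0.0584). Those of Tbx3 were lost without ventral Ngn3-high library 1 (0.0542) or 2 (0.128), E17.5 ventral library 1 (0.157), dorsal Ngn3-high library 1 (0.0631) or 2 (0.0604), or E17.5 dorsal library 1 (0.299). That of Onecut1 was lost without dorsal Ngn3-high library 1 (0.138) or E17.5 dorsal library 1 (0.0576). Summed mesenchyme markers were 851 to 2090 CPM in ventral and 594 to 1460 CPM in dorsal Ins1+ libraries, against 47.3 to 74.8 and 77.1 to 104 CPM in Ngn3-high libraries, and their part in the Tbx3 result was not tested.

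Levels per transcript length placed the genes against each other within a group. As RPKM, ventral E10.5 bulk cells held Hhex first at 75.1, then Prox1 at 30.0, Onecut1 at 23.3, Hnf4a at 21.3, Onecut2 at 13.6, Cebpa at 10.49, Tbx3 at 8.48 and Nr1h4 at 0.0255. In dorsal E10.5 cells Prox1 led at 62.6 RPKM, with Hnf4a at 20.8, Onecut1 at 16.1, Hhex at 10.0 and Tbx3 at 0.750 RPKM. In ventral E17.5 cells Hnf4a at 19.3 and Prox1 at 16.995 RPKM stood first and Nr1h4 had reached 4.40 RPKM, with Prox1 at 20.4, Hnf4a at 18.5 and Nr1h4 at 3.69 RPKM in dorsal E17.5 cells. In liver bud sets Hhex stood at 158 RPKM, Prox1 at 54.1, Tbx3 at 42.3, Hnf4a at 34.3, Cebpa at 25.2, Onecut2 at 8.89 and Onecut1 at 6.20 RPKM, and Nr1h4 was listed at 0 reads.

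Among single cells of E10.5, the side comparison depended on the Pdx1 gate. In ventral over dorsal Pdx1-low sets 4 of the 8 factors were called higher and 1 lower (24.9% of 17433 genes called; median log2 fold change 2.71 over the factors and 0 over all genes). Hhex had 504, 359, 308, 492 and 316.5 CPM in the 5 ventral Pdx1-low sets, whereas the 6 dorsal Pdx1-low sets had 0 in 4 sets, 5.54 CPM in set 4 and 0.210 CPM in set 6. The groups lay far apart (16347 against 26 reads, log2 fold change 9.02, SE 1.25, adjusted p = 6.22e-06). Of the 26 dorsal reads, 21 were in 1 cell. Tbx3 had 127, 6.72, 84.5, 84.7 and 64.2 CPM in ventral Pdx1-low sets and 1 read in all dorsal Pdx1-low sets against 3368 ventral reads, a ratio of 3660 at equal depth (95% exact interval 657 to 145000, for counting error only; adjusted p = 1.58e-05). Reads amplified from 1 molecule are not independent, so such an interval is too narrow. Onecut1 had 99.9, 98.4, 78.8, 69.8 and 44.0 CPM in ventral and 15.8 CPM in set 4, 0.126 CPM in set 6 and 0 in the other dorsal Pdx1-low sets (log2 fold change 5.02, SE 0.98, adjusted p = 0.000369). It was 10.0 without dorsal set 4, where 58 of the 63 dorsal reads were in 1 cell.

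Prox1, in contrast, was present in every dorsal Pdx1-low set at 176.3 to 397.4 CPM, against 111 to 226 CPM in ventral Pdx1-low sets. It was lower in ventral sets (149 ± 46.7 against 241 ± 81.7 CPM, SD, n = 5 and 6; log2 fold change -0.70, SE 0.22, adjusted p = 0.0203). Hnf4a ran from 36.0 to 58.6 CPM in ventral and from 24.1 to 135.3 CPM in dorsal Pdx1-low sets, with overlap. Dorsal Pdx1-low sets thus held Prox1 and Hnf4a with at most 5.54 CPM of Hhex and 15.8 CPM of Onecut1. Onecut2 had 50.8 to 155 CPM in ventral and 3.14 to 38.4 CPM in dorsal sets (log2 fold change 2.28, adjusted p = 0.0311). Cebpa had 2.82 to 18.9 CPM in ventral sets and 0 in 4 of 6 dorsal sets (adjusted p = 0.0575; 0.00506 without dorsal set 4, 0.0303 by DESeq2 and 0.0275 with sets of 5 or more cells). The call of Onecut2 was lost without any of dorsal sets 3, 5 or 6 or ventral sets 2 or 5 (adjusted p 0.0545 to 0.0693), with low counts kept (0.0738) and in cells thinned to equal depth (0.0653). That of Prox1 was lost without dorsal set 5 (0.0846), ventral set 2 (0.0592) or ventral set 5 (0.0585). All 40 dorsal Pdx1-low cells had Gcg at 10 CPM or more, and the part of alpha cell markers, summed to 23500 to 51100 CPM in these sets, was not tested. The 10 CPM mark alone does not single these cells out. Gcg also passed it in 20 of 39 ventral Pdx1-high, 21 of 39 ventral Pdx1-low and 11 of 23 liver bud cells. The highest of those cells had 398, 384 and 102 CPM, against a median of 39400 CPM in dorsal Pdx1-low cells.

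In Pdx1-high cells no factor passed the test between sides (0 of 8; 0.0172% of genes; 3 unadjusted, 0 by DESeq2). Hhex had 295, 158, 247, 113 and 102 CPM in ventral and 80.5, 50.5, 7.87, 51.5 and 44.2 CPM in dorsal Pdx1-high sets. Every ventral set was above every dorsal set, but the spread left the difference uncalled (183 ± 84.7 against 46.9 ± 25.9 CPM, SD, n = 5 each; log2 fold change 1.96, SE 0.93, adjusted p = 0.454). Cebpa had 0.923 to 9.24 CPM in ventral and 16.1, 32.2, 0, 0 and 17.1 CPM in dorsal Pdx1-high sets. Onecut1 had 61.5 to 94.1 CPM in ventral and 35.5 to 70.7 CPM in dorsal Pdx1-high sets, and Tbx3 0 to 13.8 CPM in ventral and 0 to 0.248 CPM in dorsal ones. Of the 137 ventral Tbx3 reads, 102 were in 1 cell of set 4. The change of the side difference from Pdx1-low to Pdx1-high cells was itself called for 4 factors, 1 higher and 3 lower (11.2% of genes called). It was -7.07 for Hhex (SE 1.49, adjusted p = 0.00287), -4.62 for Onecut1 (SE 1.28, adjusted p = 0.0188) and -3.82 for Onecut2 (SE 1.12, adjusted p = 0.0252). The last was lost without dorsal Pdx1-high set 4 (0.152), with low counts kept (0.0604) or with sets of 5 or more cells (0.408). The fourth was Nr1h4 (adjusted p = 0.047), whose reads were nearly all in dorsal Pdx1-low cells: 230 reads, of which 128 were in 1 cell of set 3, against 1 read in ventral Pdx1-low sets. That last call was lost without any of 16 of the sets compared (0.05 to 1), with low counts kept (0.0504) and with sets of 5 or more cells (0.169). The change for Cebpa was not called in the main fit. It was called by DESeq2 (-4.62, adjusted p = 0.0315), in thinned cells (-4.30, 0.0314) and with sets of 5 or more cells (-6.55, 0.0201).

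**Figure D3:**
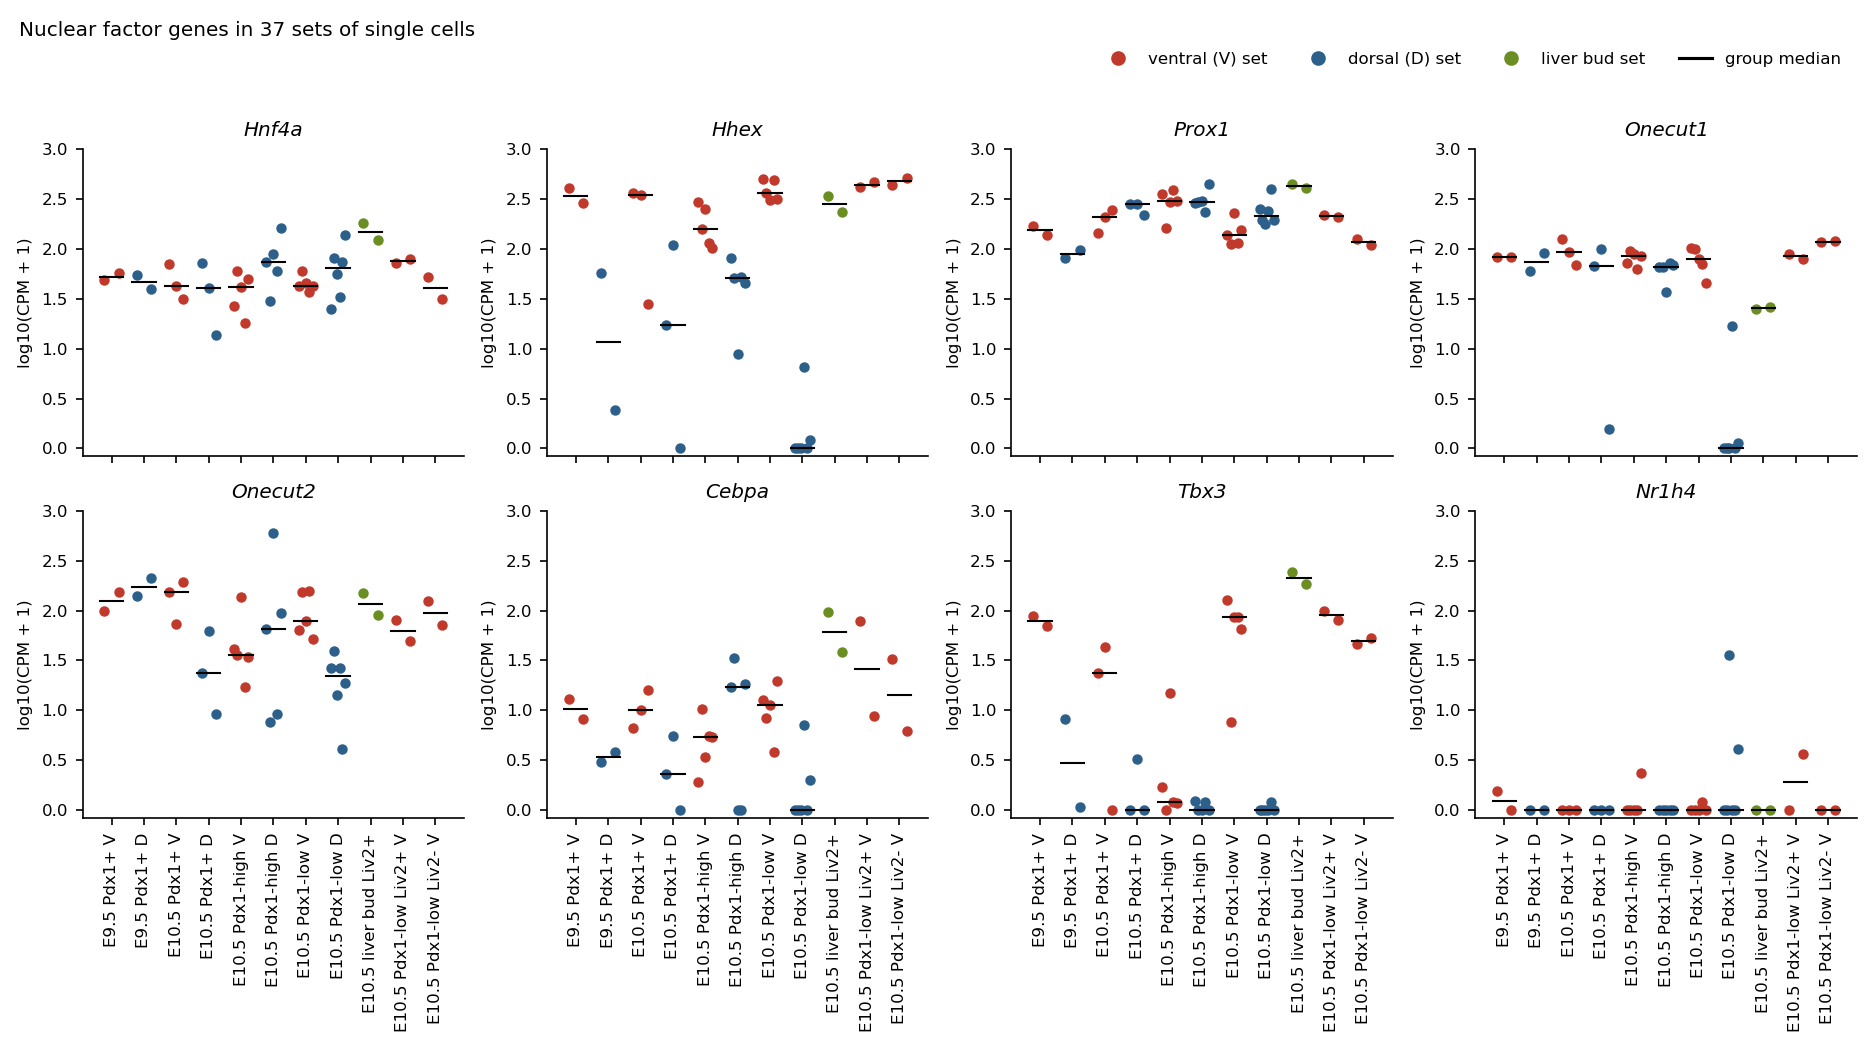
Log10(CPM + 1) of the 8 factors in the 37 sets of single cells, with 1 point per set, a line at the group median, ventral (red) left of dorsal (blue), and liver bud in green. In the dorsal Pdx1-low sets Tbx3 is at or near 0, as are Hhex and Onecut1 outside set 4 (5.54 and 15.8 CPM there). Prox1 ranges over 176.3 to 397.4 CPM in these dorsal sets. Liver bud sets are highest for Tbx3 (240.4 and 181.4 CPM).

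The Pdx1 gate was compared within each side, with the same sets as in the side comparisons. In ventral Pdx1-high over Pdx1-low sets 1 factor was called higher and 1 lower (0.964% of genes called). Prox1 had 354, 160, 297, 387 and 297 CPM in ventral Pdx1-high sets and 138, 111, 226, 114.5 and 154 CPM in ventral Pdx1-low sets (log2 fold change 1.01, SE 0.23, adjusted p = 0.0223). Tbx3 had at most 13.8 CPM in ventral Pdx1-high sets and 6.72 to 127 CPM in ventral Pdx1-low sets (log2 fold change -4.56, SE 1.17, adjusted p = 0.0491). The 2 genes went opposite ways with overlap of single sets only. Both calls were narrow: Prox1 was lost without Pdx1-high set 1 (0.06) or 5 (0.0767), without Pdx1-low set 1 (0.0592), 2 (0.0757) or 5 (0.0742) and with sets of 5 or more cells (0.052). Tbx3 was lost without any of Pdx1-high sets 1, 2, 5 or 6 or Pdx1-low sets 1, 3, 5 or 6 (0.0678 to 0.125) and with low counts kept (0.123). Summed hepatoblast markers were 569 to 1100 CPM in ventral Pdx1-high and 2450 to 9430 CPM in ventral Pdx1-low sets, and their part in these results was not tested.

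In dorsal Pdx1-high over Pdx1-low sets 4 factors were called higher and 1 lower (24.1% of genes called; median log2 fold change 2.37 over the factors and 0 over all genes). Hhex (log2 fold change 5.95, SE 1.16, adjusted p = 0.000472) and Onecut1 (4.65, SE 0.97, adjusted p = 0.000874, up to 9.67 with single sets left out) were called whichever set was left out. Onecut1 had 64.0, 64.7, 35.5, 70.7 and 67.6 CPM in the dorsal Pdx1-high sets, against at most 15.8 CPM in the dorsal Pdx1-low sets. Onecut2 was spread widely in dorsal Pdx1-high sets, at 64.0, 6.72, 592, 8.18 and 93.4 CPM, against 3.14 to 38.4 CPM in dorsal Pdx1-low sets. Its call (log2 fold change 2.90, SE 0.79, adjusted p = 0.00852) was lost without Pdx1-high set 4 (0.225), whose 4 cells held the 592 CPM, or with sets of 5 or more cells (0.55). Cebpa (3.50, adjusted p = 0.0385) was lost without any of Pdx1-high sets 1, 2 or 6 or Pdx1-low sets 1, 2, 3, 5 or 6 (0.0555 to 0.105) and with low counts kept (0.0523). Nr1h4 had 0 reads in dorsal Pdx1-high and 230 reads in dorsal Pdx1-low cells, of which 156 were in set 3 and 74 in set 6, and 128 in 1 cell. Against a floor of 3 reads it was at least 43.3-fold lower, for counting error only. Its call (adjusted p = 0.0335) was lost without any Pdx1-high set or Pdx1-low set 3 (0.0519 to 0.113) or with sets of 5 or more cells (0.194). Alpha cell markers summed to 3.05 to 110 CPM in dorsal Pdx1-high and 23500 to 51100 CPM in dorsal Pdx1-low sets, and their part was not tested.

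Pdx1+ cells taken without a high or low gate gave no called factor between the sides at E10.5 (0 of 8; 0.402% of genes; 3 unadjusted, 0 by DESeq2). Hhex had 365, 348 and 26.7 CPM in ventral and 16.1, 107 and 0 CPM in dorsal Pdx1+ sets, and the groups overlapped (log2 fold change 2.59, adjusted p = 0.532). The low ventral set 3 and the dorsal set 3 were the smallest, with 4 and 6 cells. Dorsal set 3 had 38661 CPM of Gcg and 3.63 CPM of Pdx1 with no read of Hhex, and dorsal set 2, with Hhex at 107 CPM, had 7.07 CPM of Gcg and 257.8 CPM of Pdx1. Onecut1 followed the same order, at 65.7, 99.3 and 0.573 CPM in dorsal sets 1, 2 and 3. Tbx3 had 22.6, 42.2 and 0 CPM in ventral and 0, 2.28 and 0 CPM in dorsal Pdx1+ sets, again with overlap (log2 fold change 4.75, adjusted p = 0.272). In cells thinned to equal depth Tbx3 was called (5.64, adjusted p = 0.0369).

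Liver bud cells were set against the same ventral Pdx1-high sets to place the factors along the border of liver and pancreas. There, 2 factors were called higher and 0 lower (5.53% of genes called; median log2 fold change 0.91 over the factors and -0.08 over all genes). Tbx3 had 240.4 and 181.4 CPM in the 2 liver bud sets, and 0.693, 0, 13.8, 0.208 and 0.180 CPM in ventral Pdx1-high sets (log2 fold change 6.08, SE 1.33, adjusted p = 0.0046). Every leave-out of a set kept this call, over 5.78 to 9.71. Hnf4a had 179.2 and 120.3 CPM in liver bud and 25.9, 58.4, 40.9, 17.1 and 49.2 CPM in ventral Pdx1-high sets (log2 fold change 1.97, SE 0.53, adjusted p = 0.0223). This call was lost without liver bud set 1 (0.209), liver bud set 2 (0.0928) or Pdx1-high set 5 (0.0539). Cebpa had 95.7 and 37.2 CPM in liver bud and 0.923 to 9.24 CPM in ventral Pdx1-high sets. Cebpa was not called (log2 fold change 3.94, adjusted p = 0.119, or 0.00615 in cells thinned to equal depth and 0.0426 with sets of 5 or more cells). Those groups did not overlap, but the share of all genes without overlap was not counted. Hhex and Prox1 were high in both tissues, at 337 and 232 CPM (Hhex) and 448 and 409 CPM (Prox1) in liver bud, against 102 to 295 and 160 to 387 CPM in ventral Pdx1-high sets.

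Onecut1 had 24.1 and 25.0 CPM in liver bud, 88.0 and 77.9 CPM in ventral Liv2+ and 61.5 to 94.1 CPM in ventral Pdx1-high sets. Neither difference passed the test (log2 fold change -1.76, adjusted p = 0.899 against Liv2+, and -1.70, adjusted p = 0.498 against Pdx1-high). The sets did not overlap, which can happen by chance with 2 liver bud sets. The share of all genes without overlap was not counted. Onecut2 had 149 and 88.8 CPM in the same liver bud sets. Liver bud over ventral Liv2+ sets gave 0 of 8 called (0.585% of genes; 1 unadjusted, 0 by DESeq2). The factor under an unadjusted 0.05 was Prox1, at 448 and 409 CPM in liver bud and 219 and 206 CPM in ventral Liv2+ sets (log2 fold change 1.01, adjusted p = 0.392).

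Among ventral Pdx1-low cells, Liv2+ over Liv2- sets gave 0 of 8 called, with 0.0% of genes called (201 genes and 1 factor at an unadjusted p under 0.05; 29 genes and 0 factors by DESeq2). With 2 sets per fraction, the fractions can lie apart by chance for many genes, and the share of all genes that did was not counted. Prox1 had 219 and 206 CPM in Liv2+ and 124 and 109 CPM in Liv2- sets (log2 fold change 0.87, SE 0.36, adjusted p = 1). Hnf4a had 71.3 and 78.9 CPM in Liv2+ and 51.0 and 30.3 CPM in Liv2- sets, and Tbx3 had 98.8 and 80.1 CPM in Liv2+ and 45.2 and 52.4 CPM in Liv2- sets. Onecut1 went the other way, at 88.0 and 77.9 CPM in Liv2+ and 115 and 118 CPM in Liv2- sets. The fractions overlapped for Hhex (414 and 466 against 436 and 517 CPM), Onecut2 (79.5 and 48.4 against 124 and 70.5 CPM) and Cebpa (76.9 and 7.79 against 31.6 and 5.23 CPM). Read from liver bud through Liv2+ and Liv2- to Pdx1-high sets, mean Tbx3 was 211, 89.4, 48.8 and 2.97 CPM and mean Hnf4a 149.8, 75.1, 40.7 and 38.3 CPM. Liv2- and Pdx1-high overlapped for Hnf4a and no neighbours overlapped for Tbx3. Mean Hhex, Prox1, Onecut1 and Onecut2 did not fall in this order. Prox1, for example, had 124 and 109 CPM in Liv2- and 160 to 387 CPM in Pdx1-high sets. Hhex had 337 and 232 CPM in liver bud against 414 and 466 CPM in Liv2+ sets. Ventral Pdx1-low sets not split by Liv2 held 6.72 to 127 CPM of Tbx3, which spans both fractions, and 36.0 to 58.6 CPM of Hnf4a. Liv2+ over ventral Pdx1-high sets gave 0 of 8 called (0.333% of genes; 2 unadjusted, 0 by DESeq2), with Tbx3 at a log2 fold change of 4.84 (adjusted p = 0.107; 0.00215 without Pdx1-high set 4, 0.00285 in thinned cells). Afp followed the order of Tbx3, at 25343 and 35471 CPM in liver bud, 5515 and 6885 CPM in Liv2+, 1735 and 1156 CPM in Liv2- and 21.9 to 395 CPM in Pdx1-high sets.

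At E9.5, ventral over dorsal Pdx1+ sets gave 0 of 8 called and 0.0% of genes (267 genes and 3 factors at an unadjusted p under 0.05; 33 genes and 0 factors by DESeq2). Hhex had 402 and 288 CPM in the 2 ventral and 56.1 and 1.40 CPM in the 2 dorsal sets (log2 fold change 3.61, SE 1.57, adjusted p = 1). Tbx3 had 87.1 and 68.4 CPM in ventral and 7.24 and 0.0700 CPM in dorsal sets (4.48, adjusted p = 1). Prox1 had 169 and 138 CPM in ventral and 80.3 and 95.3 CPM in dorsal sets (0.80, adjusted p = 1). These were the 3 factors under an unadjusted 0.05. In each the ventral sets lay above the dorsal ones, but the factors were picked by that p, so this adds no support. Dorsal set 1, of 7 cells, held nearly all dorsal Hhex and Tbx3. From E9.5 to E10.5 in dorsal Pdx1+ sets 1 factor was called higher (0.275% of genes called): Prox1, at 279, 281 and 219 CPM at E10.5 and 80.3 and 95.3 CPM at E9.5 (log2 fold change 1.56, SE 0.35, adjusted p = 0.0383). That call was lost without any 1 of the 5 sets (E10.5 set 1 0.0959, set 2 0.0519, set 3 0.0612; E9.5 set 1 0.652, set 2 0.344). In ventral Pdx1+ sets 0 of 8 were called from E9.5 to E10.5 and 0.0% of genes (379 genes and 0 factors unadjusted; 17 genes and 0 factors by DESeq2). The change of the side difference gave 0 of 8 (0.0516% of genes; 1 unadjusted, 0 by DESeq2).

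Counted by cell, at 10 CPM or more, Hhex was found in 23 of 23 liver bud, 54 of 54 Liv2+, 59 of 59 Liv2-, 37 of 39 ventral Pdx1-low cells, and in 37 of 39 of the ventral Pdx1-high gate. In dorsal cells it was found in 14 of 28 Pdx1-high cells (50.0%, 95% exact interval 30.6 to 69.4%), 13 of 27 Pdx1+ cells (48.1%, 28.7 to 68.1%) and 1 of 40 Pdx1-low cells (2.5%, 0.0633 to 13.2%). Ventral cells were thus nearly uniform for Hhex. Dorsal Pdx1-high cells varied by set, with Hhex in 5 of 9, 5 of 5, 0 of 2, 1 of 4, 2 of 5 and 1 of 3 cells of sets 1 to 6, so the share of 50.0% rests largely on sets 1 and 2. At E9.5 it was in 38 of 44 ventral cells (86.4%) and 7 of 31 dorsal cells (22.6%, 9.59 to 41.1%), 6 of these in the 7 cells of set 1. In dorsal Pdx1-high cells all 14 Hhex cells also had Onecut1 at this level, and 12 further cells had Onecut1 without Hhex; all 28 had Pdx1. Intervals cover counting error only.

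**Figure D4:**
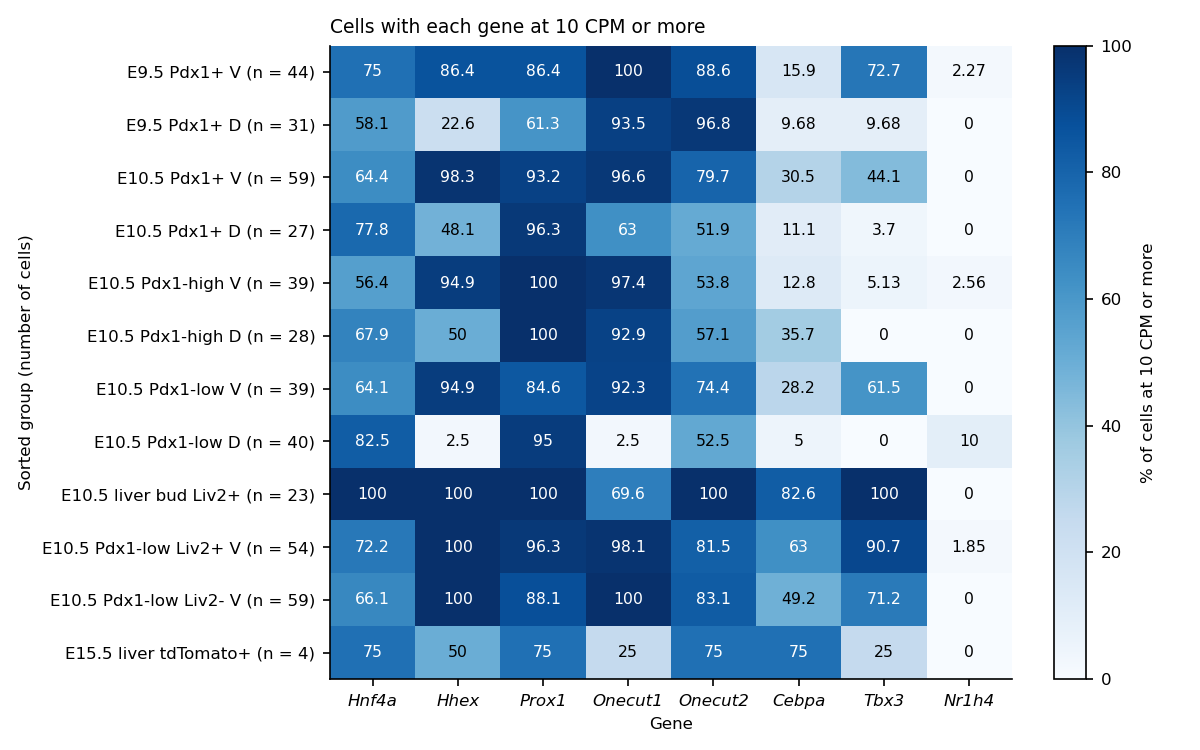
Share of cells (percent) with at least 10 CPM of each factor in the 12 single-cell groups. Hhex reads 94.9% in ventral Pdx1-high, 50.0% in dorsal Pdx1-high and 2.5% in dorsal Pdx1-low cells, and Onecut1 reads 2.5% in dorsal Pdx1-low cells.

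Tbx3 was found in 23 of 23 liver bud cells, 49 of 54 Liv2+ cells (90.7%, 79.7 to 96.9%), 42 of 59 Liv2- cells (71.2%, 57.9 to 82.2%), 24 of 39 ventral Pdx1-low cells (61.5%, 44.6 to 76.6%). Only 2 of 39 cells of the ventral Pdx1-high gate had it (5.13%, 0.627 to 17.3%). In dorsal cells it was in 0 of 28 Pdx1-high cells, which allows up to 10.7%, and 0 of 40 Pdx1-low cells, which allows up to 7.5%. Cebpa was found in 19 of 23 liver bud cells (82.6%, 61.2 to 95.0%), 34 of 54 Liv2+ and 29 of 59 Liv2- cells, and in 5 of 39 ventral Pdx1-high cells. It was in 10 of 28 dorsal Pdx1-high cells (35.7%, 18.6 to 55.9%) and in 2 of 40 dorsal Pdx1-low cells. By set, the dorsal Pdx1-high cells with Cebpa were 4 of 9, 4 of 5, 1 of 2, 0 of 4, 0 of 5 and 1 of 3 in sets 1 to 6. That share thus rests largely on sets 1 and 2, and the side difference was not called between sets. The sets of a fraction lay far apart for Cebpa: 30 of 37 and 4 of 17 Liv2+ cells had it in sets 1 and 2, against 26 of 41 and 3 of 18 Liv2- cells. All 19 liver bud Cebpa cells also had Tbx3, as did 33 of the 34 Liv2+ cells with Cebpa. Tbx3 was in all or most cells of these 2 groups, so these counts cannot show a link of the genes. In Liv2- cells 23 of the 29 Cebpa cells had Tbx3, and 19 cells had Tbx3 without Cebpa. Onecut1 was in 16 of 23 liver bud cells (69.6%), against 53 of 54 Liv2+ and 59 of 59 Liv2- cells, and in 1 of 40 dorsal Pdx1-low cells. Nr1h4 was in 4 of 40 dorsal Pdx1-low cells (10.0%, 2.79 to 23.7%) and in at most 1 cell of any other group tested.

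Tbx3, which every liver bud cell had, and Pdx1, the pancreatic homeobox gene, were counted together in each ventral Pdx1+ cell at both stages. Tbx3 does not mark liver bud alone, as 42 of 59 Liv2- cells also had it. At E10.5, 5 of 59 cells had both genes at 10 CPM or more, 21 had Tbx3 only, 25 had Pdx1 only and 8 had neither. At E9.5, 18 of 44 cells had both, 14 had Tbx3 only, 10 had Pdx1 only and 2 had neither. By set, both genes were in 2 of 33, 3 of 22 and 0 of 4 cells at E10.5 and in 11 of 28 and 7 of 16 cells at E9.5, with 3 and 2 sets and no test. All 26 Tbx3 cells of ventral Pdx1+ E10.5 also had Afp, as did 30 cells without Tbx3. Afp was thus in 56 of the 59 cells and did not set the Tbx3 cells apart. Liver bud cells had Tbx3 only (23 of 23), and ventral Pdx1-high cells had Pdx1 only in 37 of 39. Liv2+ cells had Tbx3 only in 47 of 54, and Liv2- cells had both in 13, Tbx3 only in 29 and Pdx1 only in 10 of 59. The median depth of ventral Pdx1+ E10.5 cells was the lowest of the tested groups, at 580295 reads on genes, against 806787 to 1243844 in the others.

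**Figure D5:**
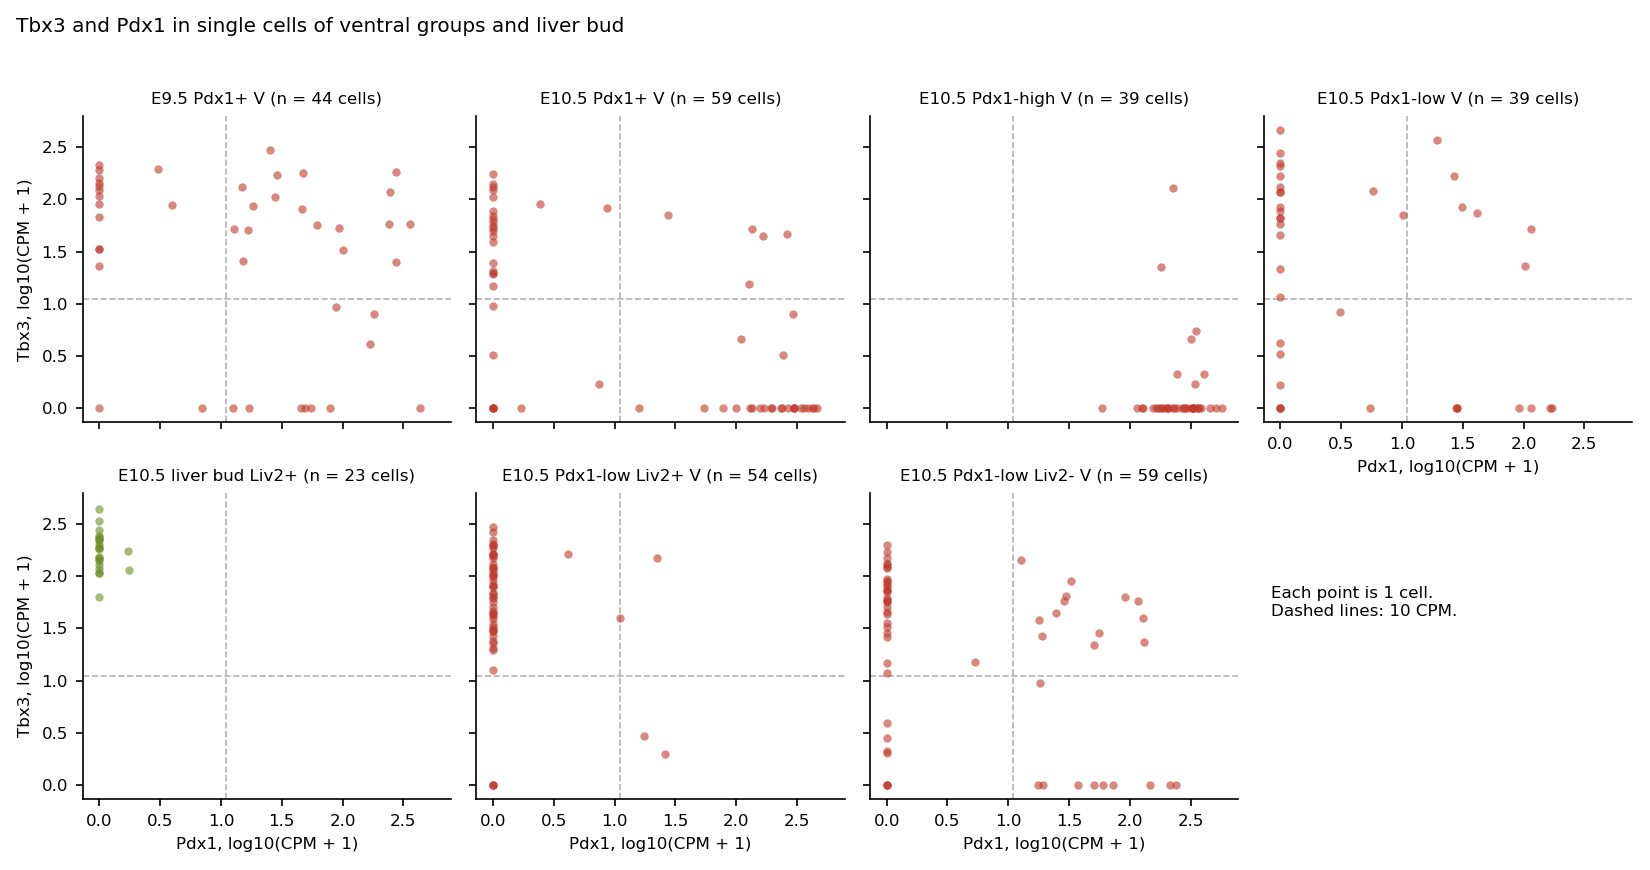
Log10(CPM + 1) of Tbx3 against Pdx1 in single cells of 7 ventral and liver bud groups, 1 point per cell, with dashed lines at 10 CPM. Cells with both genes number 18 of 44 at E9.5 and 5 of 59 at E10.5 among ventral Pdx1+ cells, and liver bud cells lie on the Tbx3 side only.

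Other nuclear factors of liver and foregut (a list of 23) moved as follows. Between sides at E10.5 in bulk, 7 of 23 were higher and 3 lower in ventral cells (median log2 fold change 0.28; 24.7% of all genes called). Nr2f2, an orphan nuclear receptor also typical of mesenchyme, had 141 ± 15.0 CPM in ventral and 32.1 ± 1.69 CPM in dorsal cells (SD, n = 2 each; 2.13, SE 0.38, adjusted p = 0.00235). Gata6, a zinc finger factor of the endoderm, rose by 1.16 and Xbp1, a secretory stress factor, fell by 0.87 on the log2 scale. In Ngn3-high cells 1 was higher and 1 lower in ventral cells (Gata4, -1.31, adjusted p = 0.00123; Onecut3, 1.42, lost without any 1 library), and 0 of 23 were called in either direction in Ngn3-low or Ins1+ cells. In Ngn3-high over Ngn3-low cells 3 were higher and 13 lower on each side (medians -1.04 ventral and -1.07 dorsal; 61.8% and 61.3% of all genes called), with the liver receptor homolog Nr5a2 at -3.00 ventral and -2.95 dorsal and Sox9, a progenitor factor, at -2.76 in dorsal cells. In ventral over dorsal Pdx1-low sets 7 of 22 were higher and 1 lower (24.9% of all genes called). There Onecut3, the third cut-homeodomain gene, had 25.1 ± 17.1 CPM in ventral and 0.0489 ± 0.0855 CPM in dorsal sets (SD, n = 5 and 6; adjusted p = 2.42e-07), so all 3 Onecut genes were higher in the ventral sets. In dorsal Pdx1-high over Pdx1-low sets 6 of 22 were higher and 0 lower (24.1% of all genes called), led by Onecut3 (8.57), Nr5a2 (5.12) and Sox9 (4.68). In liver bud over ventral Pdx1-high sets 1 was higher (Foxa1, 5.52) and 2 lower, among them Sox9 (-8.58, lost when single sets were left out), with 5.53% of all genes called. In Ngn3-low over E10.5 cells 8 of 23 were higher and 9 lower in ventral cells and 9 higher and 6 lower in dorsal cells (55.2% and 59.8% of all genes called). In Ins1+ over Ngn3-high cells 7 were higher and 7 lower in ventral cells and 3 higher and 8 lower in dorsal cells (51.0% and 47.4% of all genes called).

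Of 25 liver products that such factors are known to drive, 21 were tested in bulk, and 14 were higher and 1 lower in ventral E10.5 cells (median log2 fold change 3.02; 24.7% of all genes called). Itih2, a plasma protease inhibitor chain, was higher by 5.66 and Afp by 4.81, and Alb, serum albumin, by 5.83, a call lost without dorsal library 1 (adjusted p = 0.0769) or 2 (0.0827). In Ngn3-low over E10.5 ventral cells 12 were lower and 2 higher (55.2% of all genes called), with Itih2 at -5.25, Fgb, a fibrinogen chain, at -4.36 and Afp at -3.20. In Ngn3-high over Ngn3-low cells 5 were higher and 12 lower in ventral and 4 higher and 5 lower in dorsal cells (61.8% and 61.3% of all genes called). In ventral over dorsal Pdx1-low sets 10 of 23 were higher and 2 lower (24.9% of genes called). In ventral Pdx1-high over Pdx1-low sets 0 were higher and 4 lower (0.964%), and in dorsal Pdx1-high over Pdx1-low sets 1 was higher and 5 lower (24.1%). In liver bud over ventral Pdx1-high sets 17 of 23 were higher and 0 lower (median 6.45; 5.53% of genes called). Of those that encode lipoprotein proteins, Apoa1 had 1318 ± 368 CPM in liver bud and 0.517 ± 0.341 CPM in ventral Pdx1-high sets, and Apoa2 had 1521 ± 377 and 0.137 ± 0.195 CPM (SD, n = 2 and 5). Apob had 262 ± 15.7 CPM in liver bud and 0 reads in ventral Pdx1-high sets. In Liv2+ over ventral Pdx1-high sets 5 were higher and 0 lower (0.333% of genes called), and in Liv2+ over Liv2- and liver bud over Liv2+ sets 0 were called. Of 13 bile acid genes, the setting in which Nr1h4 is known, 3 were tested in bulk and 6 in sets; 0 differed by side at E10.5 in bulk, and 1 was higher in liver bud than in ventral Pdx1-high sets.

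The genes most like each factor were named by Pearson's r of group-mean log2(CPM + 1), over 8 bulk groups of 2 libraries and over 11 single-cell groups; groups share depth and tissue, and no test was made. In bulk, Hhex was nearest to Afm, a plasma carrier protein gene (r = 0.981), Tbx3 to Efnb2, an ephrin (0.981), Prox1 to Peg3 (0.990), Cebpa to Aco1 (0.995). Onecut1 was nearest to Yap1, a growth coactivator, Ajuba and Utp20 (0.999 each), Onecut2 to Npc1 (0.992), Hnf4a to Gyk (0.987) and Nr1h4 to Clcn3 (0.998). Over the single-cell groups Hhex was nearest to Itih5 (0.969), Tbx3 to Slc39a5 (0.982), Cebpa to Hpn, a liver surface protease (0.966), and Prox1 to Dnmt3a, a DNA methyltransferase (0.951). Among the 8 factors the closest pairs were Onecut1 with Cebpa in bulk (0.986) and Cebpa with Tbx3 over the single-cell groups (0.882).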

How the data were processed

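Deposited read counts per gene (unit: counts, not normalized, per the file headers and values) were used for 16 bulk libraries and 447 single cells; the deposited RPKM tables were not used. Per the submitters' processing notes, the authors used TopHat2 2.1.0, Bowtie2 and HTSeq 0.6.0 with GRCm38/mm10, with the annotation release and strand setting not given in the sources used here. Per the labels' protocols, bulk libraries were poly(A)-selected and directional and single cells followed Smart-seq2. The 92 spike-in rows were left out. A total of 25 ventral E9.5 cells carry a growth protocol for human cells in the labels and were kept as labelled.

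Bulk libraries were fitted in 1 model of 8 groups. Cells were summed per numbered set (at least 3 cells; 37 sets, 438 cells, 1403528 to 40576399 reads; 3 sets left out; the E15.5 cells given as values). Tests were edgeR 4.0.16 quasi-likelihood F tests (TMM, filterByExpr, Benjamini-Hochberg over all genes, 0.05), tested on simulated data; the SE is the log2 fold change divided by the root of F. CPM use TMM-adjusted totals, except in single cells. Counts were deep enough that a floor of 3 reads was under 1 CPM in every bulk group. Alternatives were DESeq2 1.42.0, its size factors in edgeR (RLE), no filter, a replicate block, each replicate left out, sets of 5 or more cells, and cells thinned to 100000 reads (seed 7). R 4.3.3, Python 3.11.15, pandas 2.3.3, SciPy 1.17.1 and matplotlib 3.10.9 were used; share intervals are exact (Clopper-Pearson). Named genes are the 8 members and their antisense neighbours, up to 3 called genes per list with the largest change (mean log2 CPM at least 3), and the genes most like each member. Members and lists were chosen with earlier results of these data known.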

Additional observations from a re-analysis of the deposited data

Results flagged for a closer look

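Single sets stood apart from the rest of their group for several factors, in groups of 5 or 6 sets. The rule flags about 1 in 20 groups by chance only where values are normally distributed. Where all other sets of a group had 0 reads, any read was flagged. This was so for Tbx3 in dorsal Pdx1-low set 5 (1 read) and for Nr1h4 in ventral Pdx1-low set 5 (1 read) and ventral Pdx1-high set 6 (15 reads in 1 cell). In dorsal Pdx1-high set 4, of 4 cells, Onecut1 was lowest at 35.5 CPM and Onecut2 highest at 592 CPM, and 1228 of the 3558 Onecut2 reads of the group (34.5%) came from 1 cell of that set. In dorsal Pdx1-low set 4, also of 4 cells, Hhex (5.54 CPM), Onecut1 (15.8 CPM) and Cebpa (6.07 CPM) were each highest, with 80.8% of the group's Hhex reads and 92.1% of its Onecut1 reads in 1 cell. In dorsal Pdx1-low set 5 Prox1 was highest at 397 CPM and Tbx3 at 0.209 CPM, and in set 3 Nr1h4 was highest at 34.7 CPM. In ventral Pdx1-high set 4 Onecut2 was highest at 137 CPM and Tbx3 at 13.8 CPM, with 74.5% of the group's Tbx3 reads in 1 cell, and in set 6 Nr1h4 was highest at 1.35 CPM. In ventral Pdx1-low set 5 Nr1h4 was highest at 0.201 CPM.

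The ventral over dorsal difference itself changed between stages or gates. On the log2 scale it was lower in E14.5 Ngn3-low than in E10.5 cells for Hhex (-2.73), Cebpa (-1.19) and Tbx3 (-3.56) and higher for Prox1 (0.85). In E17.5 Ins1+ against E10.5 cells it was lower for Hhex (-2.55) and Tbx3 (-3.37) and higher for Prox1 (0.80). In Pdx1-high against Pdx1-low sets it was lower for Hhex (-7.07), Onecut1 (-4.62) and Onecut2 (-3.82) and higher for Nr1h4 (12.16, a fitted value that rests on groups with 0 or 1 read and is no measure of size).

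The 4 E15.5 liver cells, in 1 set and outside every comparison, held reads of all 8 factors. Mean levels were 50.8 CPM for Hnf4a, 23.2 CPM for Hhex, 57.4 CPM for Prox1, 3.53 CPM for Onecut1, 81.5 CPM for Onecut2, 29.1 CPM for Cebpa and 5.39 CPM for Tbx3. Nr1h4 had 0, 0, 3.92 and 2.26 CPM, from 2 reads in 1 cell and 1 read in another. Cebpa was seen in each cell (5.30, 18.2, 56.9 and 36.1 CPM), as were Hnf4a (5.30, 64.6, 88.2 and 45.2 CPM) and Hhex (33.5, 8.07, 3.92 and 47.4 CPM). Onecut1 (14.1 CPM) and Tbx3 (21.6 CPM) were each found in a single cell, and 260 CPM of Onecut2 in 1 cell made up most of its mean. The cells had 29750 to 49950 CPM of Afp, at most 1.96 CPM of Pdx1 and 28.3 to 84.7 CPM of Gcg.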

How the results depend on the processing

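The number of factors called was counted for each kind of comparison under every alternative. With single replicates left out it was 3 to 6 for the bulk sides (5 with all), 13 to 15 for the bulk Ngn3 gate (14), 16 to 20 for the bulk stages (19), 5 to 9 for the bulk change of side differences (7), 3 to 7 for the sides in sets (5), 5 to 7 for the Pdx1 gate in sets (7), 1 to 3 for the liver comparisons (2), 0 to 1 for the stages in sets (1) and 3 to 5 for the change of side differences in sets (4). It moved by over 1.5 times to 4 for the Pdx1 gate with the replicate block and to 4 with sets of 5 or more cells, to 4 for the liver comparisons in thinned cells, to 0 for the stages in sets with the replicate block, and to 2 for the change of side differences in sets with low counts kept. Single values reversed for Onecut2: to -0.64 for dorsal Ngn3-high over Ngn3-low cells without dorsal Ngn3-low replicate 1 (3.18 without replicate 2), and to 2.36 for the change of the side difference from E10.5 to Ngn3-low cells without dorsal Ngn3-low replicate 2 (-1.46 without replicate 1). The cause was not tested.

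Numbers do not say that replicates share a litter or day. Deviations of same-numbered libraries correlated at 0.239 to 0.664 between sides in bulk, all positive, and at -0.0927 to 0.197 in sets. With 2 libraries per bulk group, the 2 numbers of a comparison give the same value and count once. These values do not settle whether the numbers mark pairs. The main fit did not pair them, and the replicate block was run as an alternative. With the replicate block the bulk counts stayed at 5, 14, 19 and 7. In sets it took dorsal Pdx1-high over Pdx1-low cells past 0.05 for Onecut2 (adjusted p = 0.0845), Cebpa (0.0641) and Nr1h4 (0.389), and Prox1 in dorsal cells of E10.5 over E9.5 (0.0906), while Tbx3 in Liv2+ over ventral Pdx1-high sets came under it (0.0274). Depth limits Nr1h4 and Tbx3, whose groups at or near 0 reads give no reliable size of change, and the sets, which hold 3 to 41 cells, limit the single-cell comparisons.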
